A study of Mus musculus with 18 samples.

Results

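The let-7 family of mouse thymocytes is described here from chimeric reads that join a microRNA (miRNA) to a piece of the RNA it was held against. The family was taken as 9 mature miRNAs, the 5p arms of let-7a, b, c, d, e, f, g and i and miR-98-5p, of 369 miRNA names found in the libraries. Their reads were selected by name, and 56278 of 411434 chimeric reads (13.7%) carried one of the 9. The assay, miR-eCLIP, uses 254 nm light to fix RNA onto the miRNA-loaded protein Argonaute 2 (Ago2), precipitates that protein, and ligates the miRNA to its target fragment before sequencing. Total thymocytes came from 6-week-old C57BL/6 mice (wild type) or from B6.Mirc14tm1.1Ankr mice, labelled miR181a/b-1-KO, in which the Mir181a-1 and Mir181b-1 genes are deleted (knockout). The labels name no Cre driver and do not give the extent of the deletion. Each genotype had 3 Ago2 immunoprecipitation (IP) libraries and 3 libraries enriched for miR-181-5p, and the 6 inputs were not analysed here. The labels do not say whether libraries of a group came from separate mice, so p-values measure the spread between libraries, which may be technical.

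The 6 Ago2 IP libraries held between 43983 and 117849 chimeric reads, of which between 5155 and 13574 were let-7 reads. All 14 thymocyte marker genes had chimeric reads in the wild type and 13 of 14 in the knockout (Ptcra had none), whereas the 5 markers of thymic epithelium had none in either. Markers of B cells had 8 reads in the wild type (4 of 5 markers) and 1 in the knockout (1 of 5), those of myeloid cells 7 in each (4 of 5) and those of erythroid cells 9 and 5 (2 of 4). Any 2 libraries of a genotype differed in their miRNA counts by more than counting error (chi-square tests over miRNAs, largest p = 0.00134), and all were kept as separate samples.

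Let-7 miRNAs are abundant in differentiated cells and repress genes of growth and the cell cycle, among them Myc, the Ras genes and the Hmga genes. Their maturation depends on Dicer1 and is blocked by the Lin28 proteins. In T cells they are known for restraining Zbtb16, the transcription factor of natural killer T cells, and the effector programme of CD8 cells. A miRNA selects targets mainly through its seed, bases 2 to 8. The mature sequences below (RefSeq, GRCm38.p6) are shown because the members share a seed and are told apart only by bases outside it. Pairing of these bases with targets was not examined. The seed is in capitals.
mmu-let-7a-5p: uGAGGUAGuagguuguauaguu
mmu-let-7b-5p: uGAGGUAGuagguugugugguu
mmu-let-7c-5p: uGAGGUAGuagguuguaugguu
mmu-let-7d-5p: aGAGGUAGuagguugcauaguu
mmu-let-7e-5p: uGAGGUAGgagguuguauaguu
mmu-let-7f-5p: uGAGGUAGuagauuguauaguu
mmu-let-7g-5p: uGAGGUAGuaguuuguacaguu
mmu-let-7i-5p: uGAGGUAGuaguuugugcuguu
mmu-miR-98-5p: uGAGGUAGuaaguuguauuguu

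All 9 members shared the seed GAGGUAG, whose complement in a target is CUACCUC. Counted from the 5′ end, with the base of let-7a first, let-7c differed from let-7a by A19G and let-7b by A17G and A19G. Let-7d differed by U1A and U16C, let-7e by U9G and let-7f by G12A. Let-7g differed by G12U and U18C, let-7i by G12U, A17G, U18C and A19U, and miR-98 by G11A and A19U. The assignment of a read to let-7a or to let-7c, let-7e or let-7f therefore rested on 1 base, and errors in it were not tested. The same holds for let-7b and let-7c, which differ at base 17 alone.

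The first comparison asks whether the family took a larger part of Ago2 contacts once the miR-181 pair was missing. Let-7 reads made up 11.5%, 11.7% and 11.7% of the chimeric reads of the wild-type libraries and 16.3%, 15.7% and 17.2% of those of the knockout. Counting error was small beside this (95% Wilson interval of the first wild-type library, 11.3% to 11.7%). The groups did not overlap, and the means were 11.6% ± 0.112 and 16.4% ± 0.740 (SD, n = 3 each; exact two-sided permutation p = 0.1, the smallest that 3 against 3 allows; adjusted p = 0.275 over 11 tests of shares). With reads of the miR-181 5p arms left out of the total, the shares were 16.5%, 16.9% and 17.3% in the wild type and 16.5%, 15.9% and 17.4% in the knockout. These overlapped, with means of 16.9% ± 0.413 and 16.6% ± 0.756 (exact permutation p = 0.7, adjusted p = 0.7). The difference between genotypes in the share of all reads was thus 4.74 percentage points, and in the share of the other reads −0.30 points. In the second measure the sign turned without knockout replicate 2 (difference 0.0638 points).

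Let-7a was the most frequent member with 13866 reads (24.6% of the family), followed by let-7f with 9759, let-7d with 8342 and let-7g with 6702. Let-7c (6051), let-7b (5890) and let-7i (5250) were close to one another. MiR-98 had 366 reads and let-7e 52. In the wild type let-7c had 9.84% ± 0.209, let-7i 9.57% ± 0.179 and let-7b 9.23% ± 0.317 of family reads, and neighbours in this order differed by about the spread between libraries. Each of the 7 frequent members exceeded miR-98, at 0.647% ± 0.118, in every library.

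Within the family, 3 of 9 members did not overlap between genotypes. Shares of family reads depend on one another, and no such count over other miRNAs is given here, so this is a description. Let-7b made up 9.44%, 8.87% and 9.39% of family reads in the wild type and 12.3%, 10.6% and 11.97% in the knockout. Let-7c made up 9.67%, 10.1% and 9.78% in the wild type and 12.5%, 11.2% and 11.1% in the knockout. Both were higher in all knockout libraries than in any wild-type library, by means of 2.36 and 1.77 percentage points. Let-7f went the other way, at 17.8%, 17.5% and 18.5% in the wild type and 16.6%, 17.3% and 16.6% in the knockout. Each of the 3 gave an exact permutation p of 0.1, and none passed after adjustment (adjusted p = 0.275 over 11 tests). Without wild-type replicate 1, wild-type replicate 3 or knockout replicate 2, 5 members did not overlap, but smaller groups separate more easily. The remaining members overlapped, with mean differences between −1.52 points (let-7a, from 25.4% ± 0.957 to 23.9% ± 0.807) and 0.0369 points (miR-98).

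**Figure D1:**
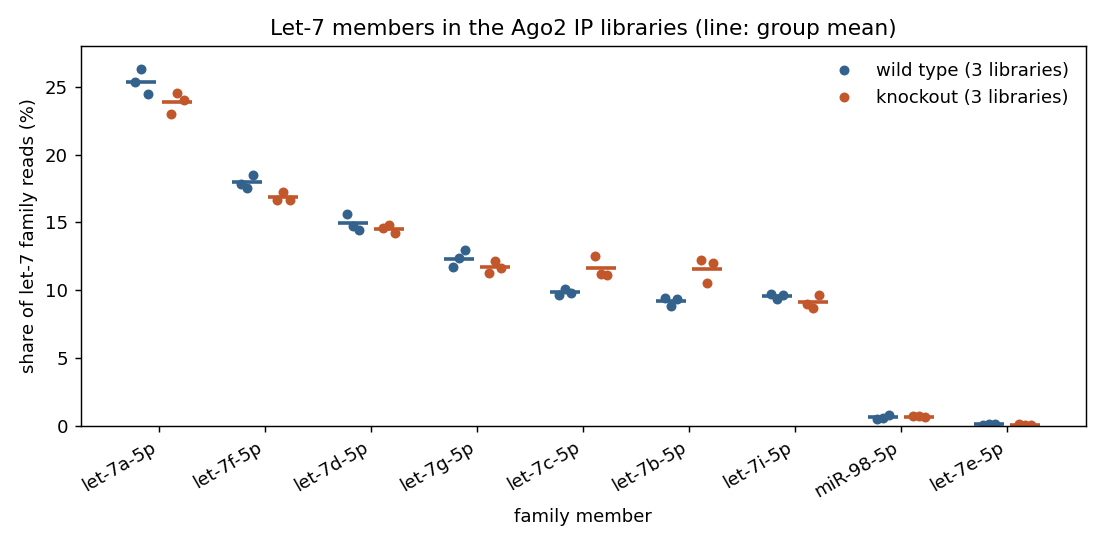
Share of let-7 family reads (y axis, percent) for each of the 9 members (x axis) in the 3 wild-type and 3 knockout Ago2 IP libraries, with a line at each group mean. Let-7b and let-7c lie higher and let-7f lower in every knockout library than in any wild-type library, and miR-98 and let-7e lie below 1%.

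The members were then set against all other miRNAs outside the miR-181 5p arms, with counts per miRNA fitted by edgeR's quasi-likelihood test. Of 119 miRNAs tested, 7 passed an adjusted p of 0.05 (5.88%), 4 higher (3.36%) and 3 lower (2.52%) in the knockout. None of the 9 members passed. Let-7b had 15570, 15025 and 16251 reads per 1000000 non-miR-181 reads (rpm) in the wild type and 20288, 16792 and 20837 in the knockout, which did not overlap. Its log2 fold change was 0.26 (SE 0.08, edgeR adjusted p = 0.0649). Let-7a was lower in the knockout, with 41839, 44614 and 42274 against 38026, 39041 and 41831 rpm. The lowest wild-type and the highest knockout library were nearly equal, and the groups did not overlap. Its log2 fold change was −0.16 (SE 0.04, edgeR adjusted p = 0.0649), and that of let-7f also −0.16 (SE 0.05, edgeR adjusted p = 0.0649). For let-7c the value was 0.17 (SE 0.06, edgeR adjusted p = 0.0937).

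The log2 fold changes of the 9 members ranged from −0.42 (let-7e, SE 0.40) to 0.26, with 3 above 0 and 6 below and a median of −0.14. The other 110 miRNAs had a median of 0.01, with the middle 50% between −0.16 and 0.28. Before adjustment, 6 members and 35 of the 119 miRNAs had a p under 0.05. Library sizes alone gave 1 call among the members and no filter on low counts 3. DESeq2 called 3 members, let-7a, let-7b and let-7f, each at an adjusted p of 0.0428. Without knockout replicate 2, edgeR called let-7b (adjusted p = 4.82e-04) and let-7c (adjusted p = 0.0239). The share of all miRNAs called under these alternatives is not given here, so these counts cannot be set against a background. The 5 other miRNAs nearest to the members' median change were miR-210-3p, miR-3068-5p, miR-25-3p, miR-21a-5p and miR-361-5p, at log2 fold changes from −0.15 to −0.13.

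**Figure D2:**
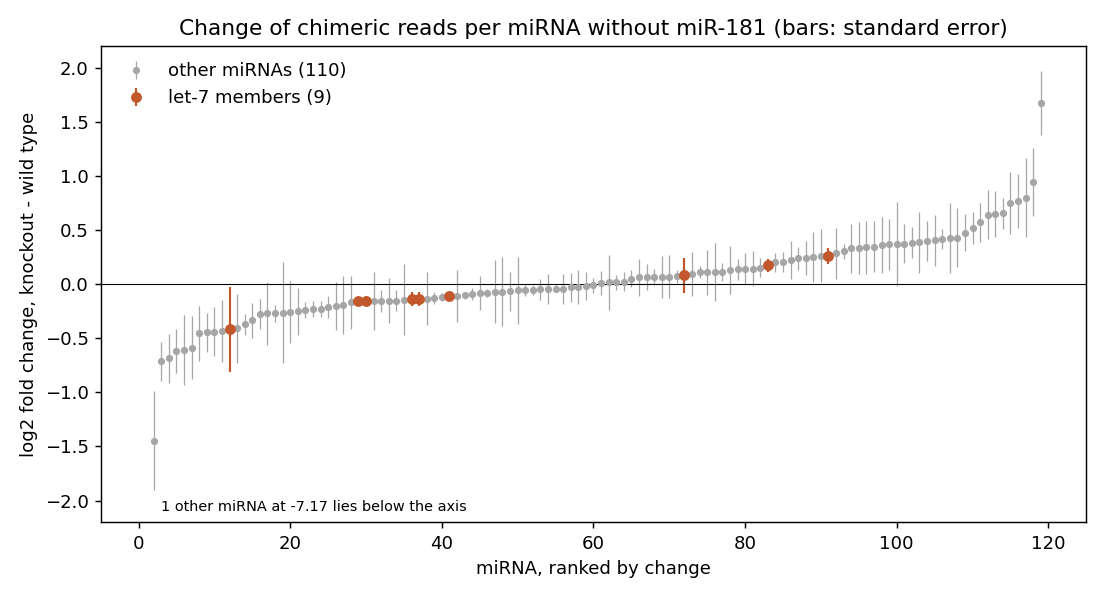
Log2 fold change (y axis, knockout minus wild type, bars show the standard error) of 119 miRNAs ranked by change (x axis), from 3 against 3 Ago2 IP libraries. The 9 let-7 members, in orange, lie between −0.42 and 0.26 within the bulk of the 110 other miRNAs, and 1 other miRNA lies below the drawn range.

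In the libraries enriched for miR-181-5p, let-7 reads numbered between 305 and 896. They were 0.204%, 0.169% and 0.157% of all reads in the wild type and 5.61%, 4.65% and 5.39% in the knockout. Among reads outside the miR-181 5p arms, they were 16.6%, 16.4% and 19.3% in the wild type and 19.0%, 17.0% and 19.7% in the knockout. These overlapped with the Ago2 IP libraries of the same genotype (mean difference 0.544 points in the wild type, exact permutation p = 0.9, and 1.93 points in the knockout, exact permutation p = 0.2). With 3 libraries a group the smallest possible p was 0.1, so these tests do not show that the shares were equal. Between same-numbered libraries the enriched one was higher in 3 of 3 pairs of the knockout, by 1.93 ± 0.753 points, and in 2 of 3 pairs of the wild type (exact paired permutation p = 0.25 and 0.75, where 0.25 is the smallest that 3 pairs allow).

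Of 8 members tested among 87 miRNAs in those libraries, let-7f was lower than in the Ago2 IP of the wild type (log2 fold change −0.38, SE 0.11, edgeR adjusted p = 0.0146). In the wild type 5.75% of the miRNAs passed, 3.45% higher and 2.3% lower. Let-7b was higher in the enriched libraries of the knockout (0.51, SE 0.10, edgeR adjusted p = 2.30e-05), as was let-7i (0.33, SE 0.12, edgeR adjusted p = 0.0304). In the knockout 20.7% of the miRNAs passed, 11.5% higher and 9.2% lower. The difference of the enrichment between genotypes passed for 0% of the 87, in either direction, and the lowest unadjusted p of a member there was 0.137 (let-7g).

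Let-7 reads lay mostly within protein-coding genes. Of the 56278 reads, 89.3% fell in the span of a single protein-coding gene, against 89.2% of the other reads, and 4.61% fell in no span. Spans run from the first to the last base of a gene, and no exon or UTR could be assigned. In all, 7516 gene spans had at least 1 let-7 read, and 223 had at least 3 in each of the 6 libraries. Among these 223 the median let-7 share of non-miR-181 reads was 21.4%, and 24 spans exceeded 50%. As the 223 were chosen by their let-7 reads, these shares are high by selection. Over the 5315 spans with at least 10 non-miR-181 reads the median was 14.1%.

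The span with the most let-7 reads was mt-Rnr1, the mitochondrial 12S ribosomal RNA, with 169, 89 and 63 let-7 reads in the wild type and 113, 119 and 101 in the knockout. Per 1000000 let-7 reads (rpm of let-7 reads) this was 11894 ± 774 and 11303 ± 79.4 (SD, n = 3 each). Actb, the cytoskeletal actin, followed at 9392 ± 1685 and 8245 ± 171, and Arpp21, an RNA-binding protein gene, at 5730 ± 265 and 5436 ± 379. In all 3 spans the groups overlapped. The long noncoding RNA Gm4258 was the fourth and is described with the knockout comparison.

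Then came Fam78a (4025 ± 560 and 5460 ± 1283 in the same order of genotypes), Satb1, a chromatin organizer of thymocytes (4541 ± 880 and 3919 ± 590), and Themis, a regulator of T cell receptor signalling (4103 ± 214 and 4184 ± 750). Ptprc, which encodes the CD45 phosphatase, had 3039 ± 171 and 3558 ± 243, without overlap, but did not pass the test described below (log2 fold change 0.25, SE 0.22, edgeR adjusted p = 0.888). Arhgap15, Dock2, Ppm1h, Mbnl1, Nfatc3, Bcl11b and Rn18s-rs5, an 18S ribosomal RNA, completed the leading 15, with between 134 and 178 let-7 reads each. Long genes gathered such totals from many places. In Satb1, 240 reads lay at 150 sites and the largest site held 11.7% of them, and in Themis 232 reads lay at 134 sites. In Fam78a, by contrast, 1 site held 88.1% of 268 reads, and in mt-Rnr1 1 site held 90.2%.

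Reads on the same strand at most 20 nt apart were joined into sites, which gave 39316 let-7 sites. Most, 34155, were a single read (60.7% of reads), and 337 sites with at least 10 reads held 14.7%. Of these, 44 had at least 3 reads in each library. The leading site lay in mt-Rnr1 at chrM:527-645 on the plus strand and had 154, 85 and 56 reads in the wild type and 103, 104 and 88 in the knockout. The next lay in Actb at chr5:142904466-142904712 on the minus strand, with 96, 64 and 31 reads and 56, 64 and 55. The third lay in Fam78a at chr2:32069043-32069130, minus strand, with 45, 24 and 18 reads and 55, 63 and 31.

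Further down the order, sites in Rac2, a small GTPase of blood cells, and in Akna held 93 and 87 reads. Sites in Dicer1, the enzyme that cuts miRNA precursors, in Arpp21 and in Bach1, a heme-responsive repressor, held 81, 82 and 75 reads. Sites in Zfp36, which promotes the decay of AU-rich mRNAs, in Med14, a subunit of the Mediator complex, and in Laptm5, a lysosomal protein of blood cells, held 71, 71 and 66 reads. A site at chr2:118565006-118565077, plus strand, to which no gene was given, held 70 reads. A site in Pag1, a membrane adaptor that holds back T cell receptor signalling, held 64 reads. The 15 leading sites were between 72 and 272 nt wide, and each had reads of 6 to 9 members.

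To see where let-7 stood apart from the other miRNAs, all reads outside the miR-181 5p arms were joined into clusters, and at each cluster with at least 30 reads the let-7 count was compared with the count of all other miRNAs in the same library (edgeR, library as a block). This comparison was added after the data were seen. The limit of 30 counts let-7 reads as well, and some clusters, such as Khsrp (48 of 48 reads), reached it through let-7 alone. The share of clusters called, their excess and their p-values are therefore partly fixed by that limit. Of 494 clusters, 430 passed an adjusted p of 0.05 (87%), 99 with more let-7 (20%) and 331 with less (67%) than the library average. Without wild-type replicate 1, 62 clusters were higher among 340 tested. In 168 clusters (34.0%) there was no let-7 read, and in 53 let-7 made up more than 75%. The let-7 share had a median of 77.4% over the 99 higher clusters, which lay in 84 differently named spans, and 95 of the 99 had reads of at least 5 members. The miRNA leading the lower clusters was most often miR-142a-3p (195 of 331), followed by miR-20a-5p (50) and miR-17-5p (32).

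**Figure D3:**
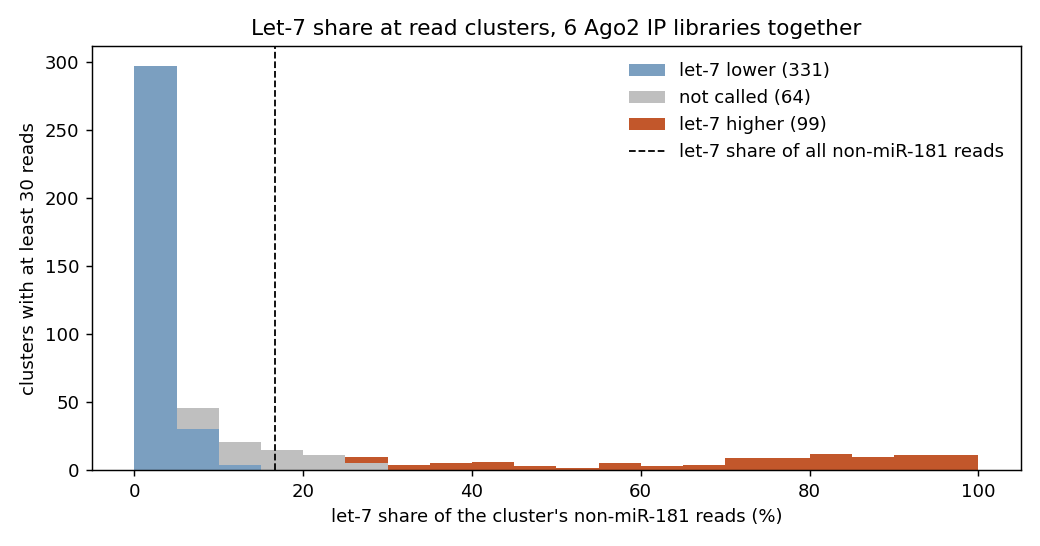
Number of read clusters (y axis) by the let-7 share of their non-miR-181 reads (x axis, percent, bins of 5 points), for 494 clusters of at least 30 reads over the 6 Ago2 IP libraries. Clusters called lower pile up at and near 0, the 99 called higher spread up to 100%, and 47 lie between 10% and 25%, around the library share of 16.7% (dashed line).

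Among the higher clusters were genes of RNA decay and of miRNA function. At the Dicer1 cluster, chr12:104702592-104702863, let-7 made up 22 of 26, 10 of 13 and 9 of 10 reads in the wild type and 16 of 17, 15 of 18 and 9 of 9 in the knockout, so that let-7 prevailed in every library. The log2 ratio of let-7 over the other miRNAs, relative to their totals, was 4.94 (SE 0.34, edgeR adjusted p = 2.27e-43). As the cluster reached 30 reads mainly through let-7, this ratio is high by selection. At Zfp36 let-7 had 71 of 86 reads, and its relative Zfp36l1 was also among the 99. At Khsrp, an RNA-binding protein that promotes both the decay of AU-rich mRNAs and the maturation of let-7 precursors, all 48 reads were let-7. Ago2 itself was also among the 99, but there let-7 had 12 of 30 reads and miR-142a-3p had 18.

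Genes of T cell signalling formed another part of the higher clusters. Nfatc3, a transcription factor activated by calcineurin, had 99 let-7 reads of 112, and Pag1 had 64 of 65. At Pag1 the single other read was miR-150-5p. Ptprc, Cd8b1, Rasgrp1, Socs1, Ccr7, Myb, Bcl11b and Tox were also among the 99. Let-7 was above the library average but in the minority at Socs1 (28 of 74 reads), Ccr7 (25 of 65), Tox (15 of 42) and a second Myb cluster (13 of 30). Rac2 had 94 of 117, with 15 reads of miR-26a-5p as the next miRNA. The naming of such groups followed inspection of the list and no enrichment was tested.

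A list of 42 published let-7 targets, chosen with earlier results of these data known, was read out for all its genes. Its shares are thus a description and no independent test. Of the 42, 28 (66.7%) had at least 1 let-7 read, against 58.2% of 12921 named gene spans. The list was counted in full, with genes that had no non-miR-181 read at all, such as Eomes and Il6. The bases of these 2 shares may therefore differ. At least 3 reads in at least 3 libraries were found at 16. Among the 26 genes with at least 10 non-miR-181 reads, 18 (69.2%) had a let-7 share above the overall 16.7%, against 41.9% of all 5315 such gene spans, and their median share was 25.8% against 14.1%. Dicer1 had 117 let-7 reads of 234, Plagl2, a zinc-finger transcription factor, 68 of 120, and Arid3b 42 of 71. Myc, the growth-promoting transcription factor, had 25 of 40, with 5, 2 and 5 reads in the wild type and 4, 3 and 6 in the knockout. These are few reads and the groups overlapped.

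Cdc34, a ubiquitin-conjugating enzyme of the cell cycle, had the highest share of the named 16, 24 of 30 reads (80.0%). Hmga1, a chromatin protein, had 19 of 29, Nras, a Ras GTPase, 24 of 69, and the death receptor gene Fas 16 of 37. Shares nearer the overall value were found at Socs1 (43 of 137 reads), Tgfbr1 (36 of 146), Igf1r (28 of 98), Zfp36l1 (26 of 94), Cdk6 (30 of 154) and Insr (23 of 124). Bcl2l1 with 23 of 210 and Rictor with 26 of 302 lay below the overall share. Hmga2 had a single let-7 read and Zbtb16 had 2, out of 2 and 6 non-miR-181 reads. The 14 genes without a let-7 read included Lin28a, Lin28b, Trim71, Eomes, Igf2bp1, Mycn and Fasl. A count of 0 in the pooled libraries allows up to 3 reads. As chimeric reads require the target RNA to be present, a gene that is not transcribed gives none, and transcript levels were not used here.

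The list of 14 genes of let-7 processing was chosen with the same knowledge. Of these, 10 (71.4%) had let-7 reads, against 58.2% of 12921 named gene spans. The same limit holds, as Ago4, Lin28a and Lin28b had no non-miR-181 read. Of the 10 listed genes with at least 10 non-miR-181 reads, 6 (60%) had a let-7 share above the overall value, against the 41.9% of such spans given above. The 3 that passed the rule for named genes were Dicer1, Ago2 (38 of 154 reads) and Tut4, a terminal uridylyltransferase that marks let-7 precursors (27 of 99). Dis3l2, the nuclease that degrades uridylated precursors, had 15 let-7 reads of 50, each at a site of its own. Xpo5, the exporter of precursors, had 9 of 39, of which 5 lay at 1 site, and Drosha had 2 of 23.

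Most sites with more than a single read had reads of several members. Of 5161 sites with at least 2 reads, 4123 (79.9%) had at least 2 members, and the share rose with depth, from 69.7% of sites with 2 reads to 97.6% of sites with 6 to 9 reads. How many members a site can show depends on its reads, so these counts are a description. No expectation from the members' family shares was set beside them. Sites with 50 or more reads, 20 in number, had between 6 and 9 members with a median of 7. In all, 397 sites had at least 5 members, 82 had at least 7, and 2 had all 9, in mt-Rnr1 and at a second site of Actb (chr5:142904070-142904223). Among the 337 sites with at least 10 reads, only 2 had a single member. These were the hairpins of let-7b (Mirlet7b, 31 reads) and let-7f (Mirlet7f-1, 26 reads).

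Sharing a site did not mean sharing it in equal measure. The 7 members with at least 5% of family reads were compared site by site, each relative to its own total and with the library as a block (edgeR quasi-likelihood F test). The planned filter on low counts left 5 sites, all of which passed (100%). As that filter keeps sites where a single member is frequent, sites with at least 30 reads in all were used in its place. This choice was made after the data were seen. It does not remove the selection, as some sites reached 30 reads mainly through 1 member (Rac2, let-7i with 80 of 93). The share of sites called and their p-values are therefore partly fixed by that limit. Of 58 such sites, 51 (87.9%) passed an adjusted p of 0.05. Among the 51 was 1 hairpin, Mirlet7b, where all 31 reads named the hairpin's own miRNA. It counts among the sites led by let-7b below. Within the wild type alone, 6 of 14 sites passed, and within the knockout alone 13 of 19. At the 51 sites the member furthest above its family share was let-7d 12 times, let-7f 9, let-7c 8, let-7i 7, let-7b 6, let-7g 5 and let-7a 4. As the largest of 7 ratios at a called site, its excess is high by selection. It had a median of 2.82 times the family share and reached 2 or more at 45 of the 51, and at 23 of the 51 this member was above its family share in all 6 libraries.

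The clearest case lay in Rac2 at chr15:78560932-78561051, minus strand. Let-7i accounted for 23 of 25, 8 of 9 and 7 of 9 let-7 reads in the wild type and 12 of 15, 17 of 18 and 13 of 17 in the knockout. That is 80 of 93 reads, or 9.22 times its share of the family (edgeR adjusted p = 3.77e-52), and 1.52% of all let-7i reads. Let-7a, the most frequent member, had 1 read there and let-7d none. The differences of let-7i from let-7a are the 4 given above, G12U, A17G, U18C and A19U, all in its 3′ part.

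In Fam78a the pattern was different. Let-7a had 165 of 236 reads (35 of 45, 20 of 24 and 12 of 18 in the wild type, 37 of 55, 44 of 63 and 17 of 31 in the knockout). Let-7a was at 2.84 times and let-7c at 1.62 times its family share, whereas let-7g, with 1 read, was at 0.0356 times (edgeR adjusted p = 2.68e-44). Let-7a prevailed in every library of both genotypes.

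Let-7d led at sites of Smurf1, a ubiquitin ligase that acts on TGF-beta signalling (26 of 37 reads, edgeR adjusted p = 4.69e-11), and of Ascc3, a helicase (23 of 35 reads, edgeR adjusted p = 2.02e-09). Neither site had a let-7g or let-7i read. Nfatc3 at chr8:106108583-106108638 was used by let-7d (39 reads) and let-7g (30) of 93, with 4 reads of let-7a and none of let-7b. Let-7g led at a site of Marchf7, a ubiquitin ligase gene (26 of 38 reads, edgeR adjusted p = 1.03e-11), and at chr9:114407673-114407738, where spans overlap and no gene was named (27 of 41). At Khsrp, let-7d had 19 and let-7b 18 of 48 reads. At mt-Rnr1 the departures were smaller, with let-7a at 1.49 times and let-7i at 0.454 times its family share (edgeR adjusted p = 3.21e-08).

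**Figure D4:**
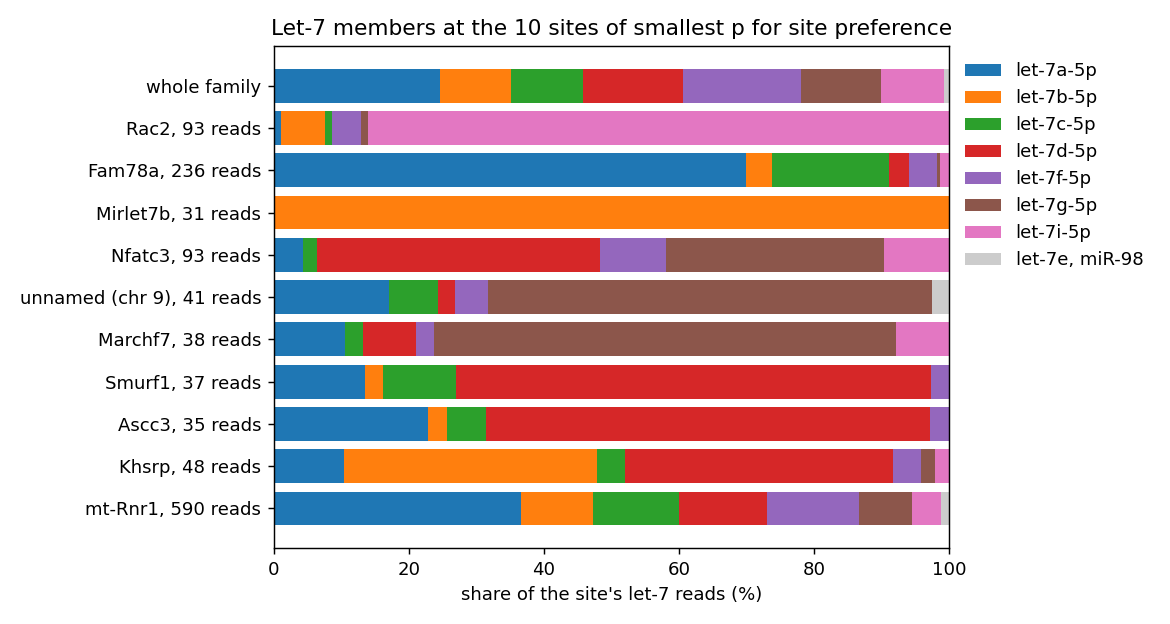
Share of let-7 reads by member (x axis, percent, stacked to 100) in the whole family and at the 10 sites of smallest p for site preference (y axis, with the number of reads of each site, 6 Ago2 IP libraries together). Let-7i fills 86.0% of the Rac2 bar and let-7a 69.9% of the Fam78a bar, whereas the mt-Rnr1 bar lies closest to the whole family.

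Not every site passed. Sites in Arpp21 (82 reads, edgeR adjusted p = 0.504), Bach1 (75 reads, edgeR adjusted p = 0.0792) and Zfp36 (71 reads, edgeR adjusted p = 0.204) did not pass, and none of the 7 members compared exceeded 1.61 times its family share there. Also not passing were Vps54 (let-7d at 2.32 times, edgeR adjusted p = 0.0713) and Ptprc (let-7f at 2.24 times, edgeR adjusted p = 0.0553). Not passing therefore does not show equal use. Another Arpp21 site, chr9:112111244-112111353, did pass (let-7f at 2.07 times, edgeR adjusted p = 0.0355). Over the 58 sites, the members' shares were most alike for let-7a and let-7c (Spearman's rank correlation 0.587) and for let-7f and let-7g (0.549), and least alike for let-7b and let-7g (−0.118). These are descriptions over sites drawn from the same 6 libraries and chosen for their total reads. In tests of single pairs, let-7a and let-7c differed at 2 of 57 sites, let-7f and let-7g at 6 of 57, let-7a and let-7g at 20 of 57, and let-7d and let-7g at 20 of 57. The counts did not follow the correlations throughout: let-7b and let-7g differed at 11 of 57 sites and let-7a and let-7b at 5 of 58.

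Reads inside the family's own hairpins were few. The 11 hairpins of the members, in the gene table, held 83 let-7 reads, 0.147% of the family, at 8 of them. Of these, 81 named the hairpin's own mature miRNA. Besides Mirlet7b (31 reads) and Mirlet7f-1 (26), Mirlet7i had 9, Mirlet7a-1 had 7 and Mirlet7c-2 had 6.

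The last comparison asks at which sites and genes let-7 reads changed in the knockout. Of 75 let-7 sites that could be tested, 1 passed (1.33%), higher in the knockout, and 0% were lower. It lay at chr1:137965106-137965302 on the plus strand, outside any named span, 2086 bases after the end of Gm4258 and 1153 bases before the Mir181a-1 hairpin (chr1:137966455-137966541). It had 17, 10 and 7 let-7 reads in the wild type and 36, 41 and 41 in the knockout. In rpm of let-7 reads this was 1282 ± 65.8 and 4027 ± 500.4 (SD, n = 3 each), with no overlap (log2 fold change 1.498, SE 0.29, edgeR adjusted p = 0.00149). DESeq2 did not call it (adjusted p = 0.151). Without wild-type replicate 2 or knockout replicate 1, 2 sites passed, and without wild-type replicate 3 or knockout replicate 3, 3 sites passed, this site each time among them. At an unadjusted p under 0.05, 10 of the 75 sites passed with edgeR and 2 with DESeq2. The median log2 fold change of the 75 sites was 0.02 with TMM factors and 0.17 with library sizes alone.

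Over gene spans the same place stood out. Of 339 spans tested, 1 passed (0.295%), higher in the knockout, and 0% were lower, and 25 had an unadjusted p under 0.05. It was Gm4258, a long noncoding RNA gene at chr1:137898464-137963020 that ends 3435 bases before Mir181a-1. It had 41, 30 and 19 let-7 reads in the wild type and 61, 66 and 75 in the knockout, without overlap. In rpm of let-7 reads this was 3472 ± 392 and 6921 ± 1275 (log2 fold change 1.05, SE 0.17, edgeR adjusted p = 2.10e-06). The call was also made by DESeq2 (adjusted p = 1.39e-04), and both calls, site and span, were made by edgeR with each of the 6 libraries left out in turn. With no filter on low counts neither was made (0 of 7516 spans, and another site in place of this one).

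Other miRNAs moved with let-7 there. In Gm4258, reads of the remaining miRNAs outside the miR-181 5p arms were 2963 ± 427 rpm of their total in the wild type against 6463 ± 305, 2.18 times as many, against 1.99 times for let-7. The let-7 share of the span was 19.3% ± 1.81 and 17.5% ± 2.71, with overlap. At the site before Mir181a-1, other miRNAs had 2, 0 and 0 reads in the wild type and 3, 6 and 5 in the knockout. These few reads were 9.69 ± 16.8 and 94.9 ± 30.8 rpm of their total, without overlap and 9.79 times as many, against 3.14 times for let-7. Let-7 made up 96.5% ± 6.08 and 89.6% ± 2.56 of the site's reads, with overlap. Levels of the RNAs themselves were not measured in these files, and their part in the change was not tested.

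A further 7 let-7 sites of at least 10 reads lay around the deleted hairpins, in a window set after the fits were seen. All had more reads in the knockout, also relative to the 26813 wild-type and 29465 knockout let-7 reads. The limit of 10 counts both genotypes together, and most of these sites reached it only with their knockout reads. Their direction is therefore partly fixed by that limit and is no test. Over all 337 sites of at least 10 reads, 56.4% were higher in the knockout in this sense. Of the 7, 6 were in Gm4258, such as chr1:137955732-137955902, with 5, 3 and 3 reads in the wild type and 9, 13 and 14 in the knockout (log2 fold change 1.39, SE 0.46, edgeR adjusted p = 0.201). The remaining one, chr1:137990480-137990521, named after its values were seen, lay 23762 bases after the end of Mir181b-1. It had no reads in the 3 wild-type libraries and 7, 12 and 3 in the knockout, at least 6.67-fold more against a floor of 3 reads over the wild-type group. It passed the limit of 10 reads through the knockout alone, so this fold is high by selection. It was below the filter on low counts and has no adjusted p in the main test.

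**Figure D5:**
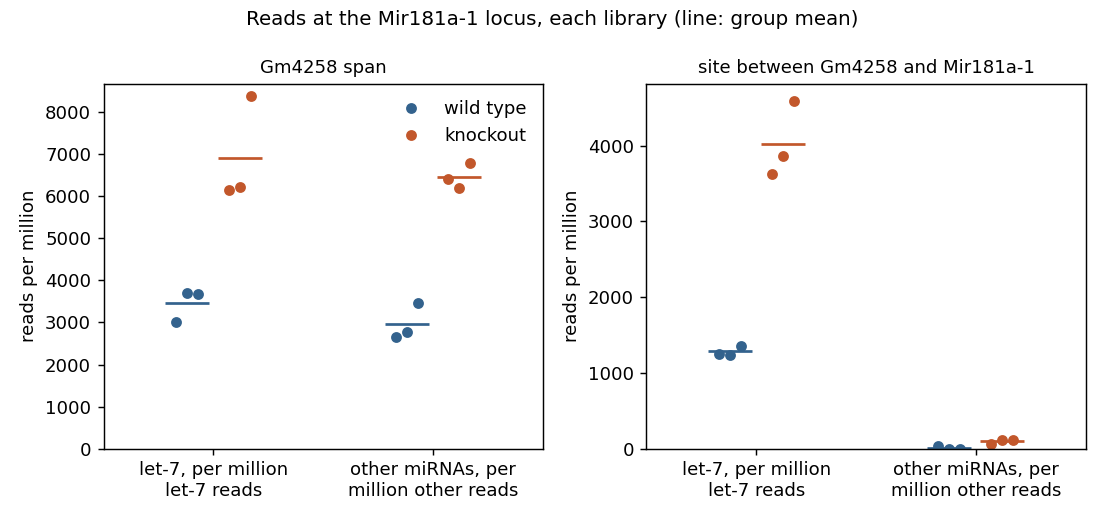
Reads per 1000000 (y axes) of let-7 and of all other miRNAs outside the miR-181 5p arms, each relative to its own total, in the Gm4258 span (left) and at the called site between Gm4258 and Mir181a-1 (right), for 3 wild-type and 3 knockout Ago2 IP libraries with lines at the group means. Knockout libraries lie above wild-type libraries for let-7 and for the other miRNAs in Gm4258, and at the site the reads are nearly all let-7.

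Elsewhere no span or site passed in the main test, and 41 of the 339 spans (12.1%) and 10 of the 75 sites (13.3%) did not overlap between genotypes. The span of next smallest p, named after its values were seen, was Ccr7, a chemokine receptor gene of maturing thymocytes. It had 13, 12 and 7 let-7 reads in the wild type and 4, 7 and 1 in the knockout (log2 fold change −1.50, SE 0.46, edgeR adjusted p = 0.207). Fam78a had 52, 29 and 24 reads and 58, 69 and 36, which overlapped as shares of the library (log2 fold change 0.52, SE 0.17, edgeR adjusted p = 0.256). The median standard error was 0.46 for spans and 0.47 for sites, which at these depths leaves smaller changes of single genes out of reach.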

How the data were processed

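The deposited values are raw counts, one file per strand and library: a line stands for 1 chimeric read, with its 1-nt position and miRNA name, and the authors neither scaled nor pooled them. Per the submitters' processing notes the tools included Bowtie2 2.4.5, STAR 2.7.10, SAMtools 1.11, UMI-tools 1.1.1 and bedtools 2.30.0 and the builds mm10 and GRCm38.p6. Which did what is not given in the sources used here. Coordinates are 1-based from the files.

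Members and gene lists were chosen with earlier results of these data known. Sites joined positions at most 20 nt apart. Names came from RefSeq GRCm38.p6 spans (hairpins first, protein-coding spans second, other spans last, unnamed where several remained), without strand. Inside hairpins of 5p miRNAs with at least 5 reads, median positions lay 2 to 4 nt before the mature 3′ end on the plus strand (13 hairpins) and 29 to 51 nt after it on the minus strand (17 hairpins). Positions thus mark opposite ends of the RNA on the strands, and sites of at least 10 reads had median widths of 42 and 69.5 nt.

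Counts were fitted with edgeR 4.0.16 (quasi-likelihood, TMM, filterByExpr with a minimum count of 10 for miRNAs and 5 for sites and spans, Benjamini-Hochberg adjustment, R 4.3.3), and with DESeq2 1.42.0 as an alternative. Site preference and the comparison with other miRNAs used each member's or class's own total as library size. Shares were tested by exact permutation (Python 3.11.15). The fits were tested on simulated counts. Floors are 3 reads, and intervals cover counting error only. Identical let-7 lines made up between 1.31% and 2.23% of the let-7 reads of an Ago2 IP library and between 2.30% and 3.53% of those of an enriched library, and were kept.

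Named were the 9 members, the 15 spans and 15 sites with the most let-7 rpm among those with at least 3 reads in each Ago2 IP library, the calls between genotypes (up to 10 a direction), the 10 sites of smallest p for preference, published targets with at least 3 reads in at least 3 libraries, and 5 neighbouring miRNAs. Same-numbered libraries of the genotypes did not deviate together (correlations between −0.135 and 0.0581), so numbers do not pair them. Between Ago2 IP and enriched libraries the correlations were between 0.136 and 0.176 in the wild type and between −0.00182 and 0.0223 in the knockout. These are low and were not compared with those of differently numbered libraries, so pairing by number is not established.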

Additional observations from a re-analysis of the deposited data

Results flagged for a closer look

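Other let-7 names were read in the Ago2 IP libraries, outside the 9 members of the comparisons, above the 3 reads that a count of 0 allows. Let-7d-3p, the opposite arm of the let-7d hairpin, had 306 reads (75, 42 and 28 in the wild type and 56, 59 and 46 in the knockout). Let-7i-3p had 18 reads. Let-7j had 3, let-7c-2-3p had 2 and let-7a-1-3p had 1, at or below that limit.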

How the results depend on the processing

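Most results kept their direction and their side of the threshold. Of the alternatives for the comparisons, 86 left the value within its bounds, 26 moved it and 2 turned its sign. Members against other miRNAs: calls numbered 0 in the main fit, 3 with DESeq2, 1 with library sizes alone, 3 with no filter, 4 with a replicate block and between 0 and 2 with 1 library left out. The share of all miRNAs called under each alternative is not given. Sites between genotypes: 1 call in the main fit, 0 with DESeq2, 2 with library sizes alone or a minimum count of 10 (the second in Fam78a), 0 with a replicate block and between 1 and 3 with 1 library left out. With no filter the 1 site called was chr1:137990480-137990521. Gene spans: 1 call, 1 with a replicate block, and 0 with no filter over 7516 spans, where 229 had an unadjusted p under 0.05. Pairing same-numbered enriched and Ago2 IP libraries, added after seeing the data, left the share differences at 0.544 and 1.93 points, and a block changed no call among the members in either genotype. The family's share of non-miR-181 reads differed by −0.69 to 0.0638 points with 1 library left out (above 0 without knockout replicate 2), and the share in the enriched wild-type libraries by −0.368 to 1.05 points (below 0 without enriched replicate 3). For miR-98 the log2 fold change lay between −0.0572 and 0.195 and the difference of its family share between −0.0137 and 0.102 points, below 0 in both without wild-type replicate 1. Members without overlap numbered between 3 and 5 with 1 library left out, where smaller groups separate more easily.

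Site preference gave 5 calls as planned, 78 at 20 reads, 51 at 30 and 17 at 50, and at 30 reads 48 with identical lines counted once, 50 without hairpins, 13 in the knockout alone and 6 in the wild type alone. Clusters with more let-7 than the library average numbered 99, between 62 and 87 with 1 library left out (62 without wild-type replicate 1), 24 in the wild type alone and 30 in the knockout alone, where fewer clusters reached 30 reads. The planned seed match and annotation of sites was not run, as it needs a genome and exons. In other cases the cause was not tested. Depth limits single genes: 339 of 7516 spans could be tested.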
